A study of Mus musculus with 10 samples.

Results

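The genes of glucose handling were followed in RNA-seq data of the mouse kidney cortex. They comprised 43 listed genes of the 21792 measured, matched by symbol to Ensembl identifiers, with 8 genes of glucose and hexose transport, 7 of gluconeogenesis and 28 of glycolysis with the steps of lactate, pyruvate and fructose that adjoin it. All 43 were found and all 43 passed the filter on low values. The data came from 10 male wild-type mice (genotype WT) of the kidney fibrosis model aristolochic acid nephropathy (AAN), a tubular injury caused by a plant toxin. The 4 sham mice (B607, B634, B636 and H249) received PBS, and the 6 AAN mice (A483, B614, B630, B639, B642 and B666) received aristolochic acid once into the peritoneum at 5 mg/kg, and all kidneys were taken at day 28. The labels give no age or strain, while the methods of the study name C57BL/6 mice of 8 weeks for this model, and no knockout or other agent was part of the samples. Whole cortex was sequenced, so fewer cells of a type and less RNA per cell cannot be told apart in any value below. The depth recovered from the values was 15.8 to 17.5 M fragments in sham mice and 13.4 to 16.5 M in AAN mice.

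The level of a gene is given in FPKM, the fragments per kilobase of gene and per M fragments, which is a scale per length. Changes were taken as log2 fold changes of AAN against sham on log2(FPKM + 0.1), with standard errors (SE) and Benjamini-Hochberg adjusted p-values from limma over the 17129 genes that averaged 0.1 FPKM or more. A gene was called when its adjusted p was at most 0.05 and its change at least 2-fold. By this rule 6126 genes (35.8%) were higher in AAN mice and 588 (3.43%) were lower, and the median log2 fold change of all genes tested was 0.75. Sham libraries gave a large part of their FPKM to a few genes, with 39.5% to 61.4% from the mitochondrial genome against 21.4% to 55.0% in AAN mice. The values were therefore also rescaled. With scaling by the median of ratios, the median change of all genes was 0.065, 19% of genes were called higher and 10.5% lower.

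The proximal tubule of the kidney takes back the filtered glucose through sodium coupled carriers and releases it to the blood through facilitative carriers. It also makes glucose from lactate, glutamine and other precursors, and it burns little glucose itself. Glycolysis runs in the opposite direction and is shared by all cells, with isozymes that differ between tissues. Distal segments, immune cells and dividing cells are known for a greater use of it.

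Of the 43 genes, 14 were called higher, 4 lower and 25 were not called, beside backgrounds of 35.8% and 3.43% of all genes. The 4 genes that fell were *Pck1*, *G6pc* and *Pcx* of gluconeogenesis and *Khk* of fructose entry, and each had a mean of over 100 FPKM in sham mice. Of the 14 genes that rose, 9 had a sham mean under 1 FPKM, and their median sham level was 0.61 FPKM against 25.1 FPKM for the 25 genes not called. The genes *Slc2a3*, *Slc2a6*, *Hk2*, *Eno2* and *Slc16a3*, 5 of these 14, had sham means under 0.1 FPKM and passed the filter only through the AAN mice. The difference in sham level, and the separation and tests of these 5 genes, are therefore partly set by the filter. Abundant glycolytic genes such as *Ldhb* and *Aldoa* were among the genes not called. At the adjusted p limit alone, 16 members were higher and 7 lower, beside 55.4% and 6% of all genes. The median log2 fold change was 0.28 for transport, -1.26 for gluconeogenesis and 0.29 for glycolysis, against 0.75 for all genes tested. With scaling by the median of ratios, 8 of the 43 genes were called higher and 13 lower, and by quantile normalization, where 14.9% of all genes were called higher and 11.6% lower, 6 were called higher and 5 lower. The genes *Pck1*, *G6pc*, *Pcx*, *Khk* and *Slc16a1* were called lower and *Slc2a3*, *Slc2a6*, *Hk2*, *Hk3*, *Eno2* and *Slc16a3* were called higher under both.

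**Figure D1:**
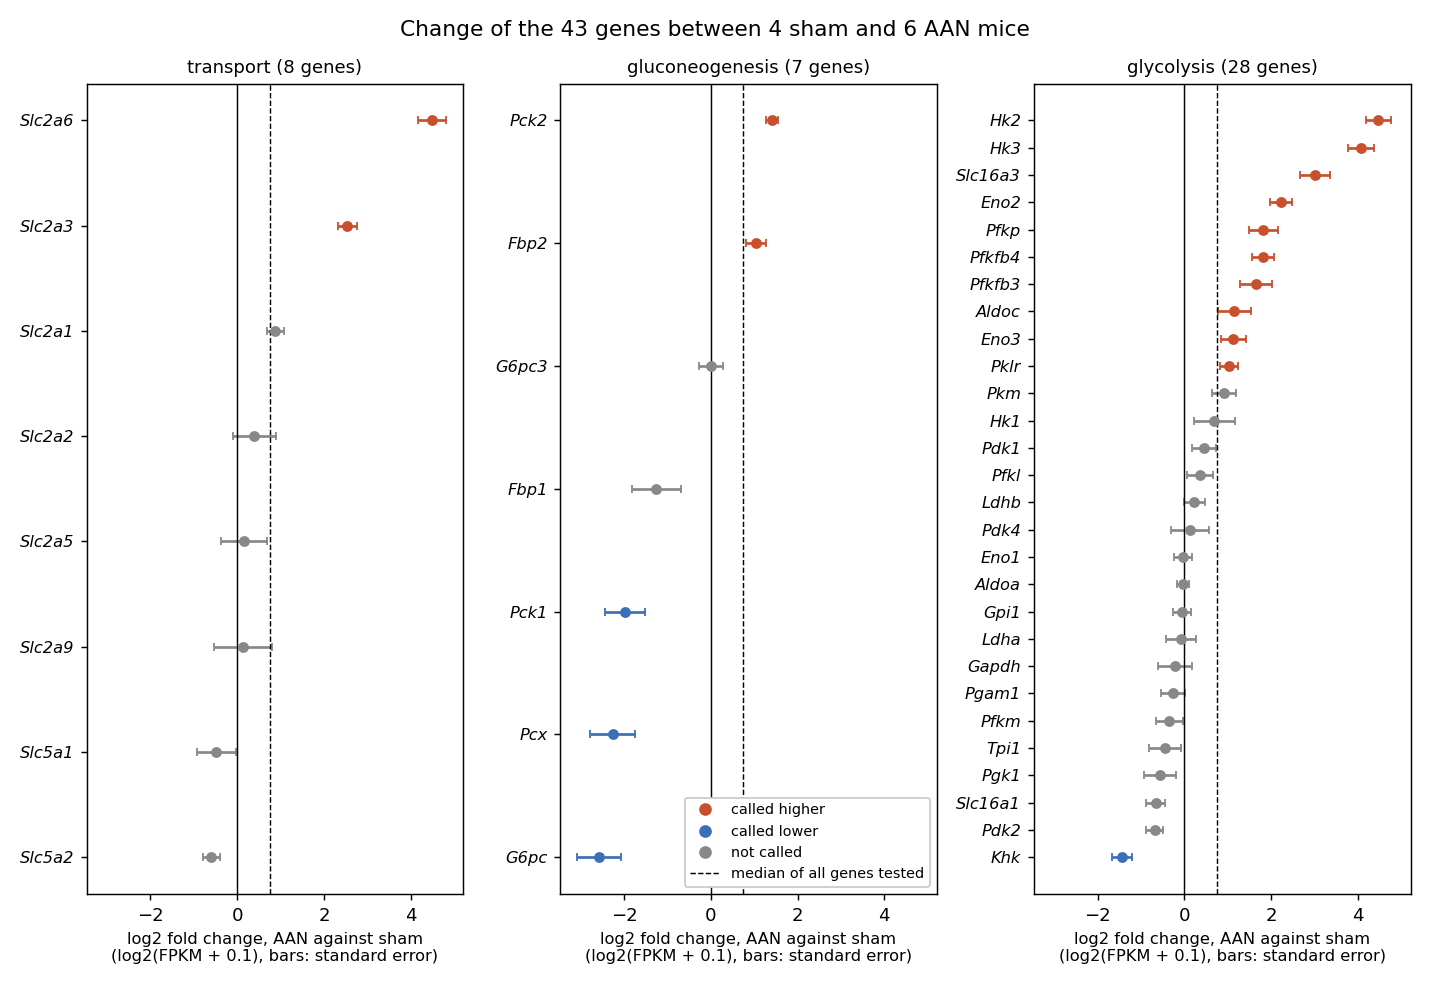
Log2 fold change of AAN against sham mice on log2(FPKM + 0.1) for each of the 43 genes, by role, with bars of 1 standard error (4 sham and 6 AAN mice). Red points were called higher, blue points lower and grey points were not called. The dashed line is the median of all genes tested, 0.75, and the gluconeogenic genes *Pck1*, *Pcx* and *G6pc* lie at -1.98, -2.27 and -2.57.

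The stretches before the annotated starts of 4 genes are shown for the gluconeogenic enzymes *Pck1* and *Pcx*, which fell, and the hexokinases *Hk2* and *Hk3*, which rose. The sequences are from RefSeq (GRCm38.p6) and run 5′ to 3′ on the strand of the gene. Each ends at the base before the start, except that of *Pck1*, from which the last 25 bases were left out because GENCODE places them in an exon. None of the printed bases is in an exon of GENCODE, so each stretch lies upstream of its gene. The positions are chr2:173152823-173153047 (+) for *Pck1*, chr19:4510222-4510471 (+) for *Pcx*, chr6:82774455-82774704 (-) for *Hk2* and chr13:55021386-55021635 (-) for *Hk3*. Capitals mark matches on either strand to ACGTG, the core that hypoxia-inducible factors bind, to ACGTCA, a part of the cAMP response element, and to GTTAAT, a part of the HNF1 site.
Pck1: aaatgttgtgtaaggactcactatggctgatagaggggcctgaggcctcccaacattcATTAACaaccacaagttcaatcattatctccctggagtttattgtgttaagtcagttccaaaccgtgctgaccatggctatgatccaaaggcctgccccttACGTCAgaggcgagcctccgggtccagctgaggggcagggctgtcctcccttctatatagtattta
Pcx: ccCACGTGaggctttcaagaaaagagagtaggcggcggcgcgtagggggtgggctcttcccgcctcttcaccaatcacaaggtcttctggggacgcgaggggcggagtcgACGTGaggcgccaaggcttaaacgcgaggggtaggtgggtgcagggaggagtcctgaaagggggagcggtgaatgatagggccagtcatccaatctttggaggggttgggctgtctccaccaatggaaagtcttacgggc
Hk2: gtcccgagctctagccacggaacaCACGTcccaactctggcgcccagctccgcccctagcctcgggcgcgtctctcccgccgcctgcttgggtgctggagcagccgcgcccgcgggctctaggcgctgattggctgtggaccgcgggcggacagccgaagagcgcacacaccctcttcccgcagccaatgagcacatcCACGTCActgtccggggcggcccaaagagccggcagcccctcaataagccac
Hk3: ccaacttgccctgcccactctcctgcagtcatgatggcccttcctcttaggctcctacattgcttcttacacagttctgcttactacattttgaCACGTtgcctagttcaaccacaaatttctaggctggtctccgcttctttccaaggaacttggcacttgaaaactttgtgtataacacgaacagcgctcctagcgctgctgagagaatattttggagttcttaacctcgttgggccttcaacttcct

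RefSeq windows of 250 bases were found for 41 of the 43 genes, 57 windows in all since some genes have several starts. The letters ACGTG were in 36.8% of these windows, against 16.6% of the 32851 windows of all genes. They were present in 5 of 13 genes called higher, 2 of 4 called lower and 11 of 24 not called. GTTAAT was in 6.43% of all windows and in 5.26% of the windows of members. Among members it was only in those of *Pck1*, *G6pc* and *Khk*, 3 of the 4 genes that fell. The counted windows include exon bases, 128 in that of *Khk*, and its GTTAAT match lies among them. ACGTCA was in 6.47% of all windows and in those of *Pck1*, *Hk2*, *Pfkfb3*, *Slc16a3* and *Ldha*. In *Hk2* the nearer ACGTG match overlaps the ACGTCA match. The letters TGNACTTTG, a form of the HNF4 site, were in 1.19% of all windows and in none of the members, and TATAAA was in 12.4% of all windows and in those of *Eno2*, *G6pc* and *Pklr*. These are matches of letters, and binding was not measured.

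Gluconeogenesis had the lowest median of the 3 roles. Among its 7 genes, 3 were called lower, 2 were called higher and 2 were not called, beside 3.43% of all genes called lower and 35.8% higher. *Pck1* (ENSMUSG00000027513, chr2:173153048-173159273 on GRCm38), the cytosolic PEP carboxykinase that commits carbon to glucose, had 294, 550, 436 and 385 FPKM in the sham mice B607, B634, B636 and H249. In AAN mice its lowest, median and highest values were 55.3, 85.9 and 385 FPKM. The highest was AAN B614, which lay inside the sham range, and the 5 other AAN mice had 55.3 to 111 FPKM, below every sham mouse. *Pck1* fell by 1.98 on the log2 scale (SE 0.45, adjusted p = 0.0027), and without B614 the change was -2.36 (adjusted p = 9.7e-06).

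*G6pc* (ENSMUSG00000078650, chr11:101367561-101377903), the glucose 6-phosphatase that frees glucose for release, had 317, 107, 159 and 195 FPKM in the sham mice in the same order. Its AAN values ran from 15.0 through a median of 26.0 to 122 FPKM. Here too B614 alone reached the sham range, and the others stayed at 15.0 to 31.3 FPKM. *G6pc* fell by 2.57 (SE 0.51, adjusted p = 0.0010). *Pcx* (ENSMUSG00000024892, chr19:4510472-4621752), the mitochondrial pyruvate carboxylase that makes oxaloacetate, had 224, 93.9, 129 and 146 FPKM in sham mice and 15.3, 23.8 and 129.9 FPKM as the lowest, median and highest AAN values. It fell by 2.27 (SE 0.52, adjusted p = 0.0026). Its highest AAN value was again that of B614, and the other AAN mice did not exceed 32.9 FPKM.

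*Fbp1* (ENSMUSG00000069805, chr13:62864753-62888282), the liver and kidney fructose bisphosphatase, had the widest spread among sham mice in FPKM, though not relative to level, with 509, 134, 189 and 364 FPKM. The lowest, median and highest AAN values were 44.3, 116 and 370 FPKM, the last in B614. The groups overlapped, and 4 of 6 AAN mice were below all sham mice. The log2 fold change was -1.26 (SE 0.56, adjusted p = 0.070), so *Fbp1* did not pass the test with all mice. It was called lower with all mice by the median of ratios (-2.03, adjusted p = 0.0078). The same held without AAN B614 (-1.61, adjusted p = 0.011) or without sham B634 (-1.58). It was weaker and not called with the same FPKM total (-0.90, adjusted p = 0.24) or without sham B607 (-0.94).

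The other isozymes of these steps were not called lower under any scaling. *Pck2* (ENSMUSG00000040618, chr14:55540266-55551242), the mitochondrial PEP carboxykinase, had 4.72, 3.82, 4.77 and 4.92 FPKM in sham mice and from 10.4 through 12.2 to 14.2 FPKM in AAN mice. Every AAN mouse, B614 included, was above every sham mouse, and *Pck2* rose by 1.42 (SE 0.14, adjusted p = 5.7e-06). The muscle fructose bisphosphatase *Fbp2* had 10.6, 9.86, 12.2 and 9.25 FPKM in sham mice and 13.5, 22.7 and 31.3 FPKM as the lowest, median and highest AAN values, a change of 1.05 (SE 0.23, adjusted p = 0.0020). Its groups did not overlap, but the call of *Fbp2* was lost without sham H249, AAN A483 or AAN B642 and with a pseudocount of 1 (0.99). With scaling by the median of ratios *Pck2* and *Fbp2* had changes of 0.66 and 0.29 and neither was called. *G6pc3*, a glucose 6-phosphatase found in most tissues, had means of 12.1 ± 1.16 (SD, n = 4) and 13.0 ± 4.66 FPKM (SD, n = 6) and a change of 0.003, which became -0.75 by the median of ratios and -0.53 by quantile normalization.

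**Figure D2:**
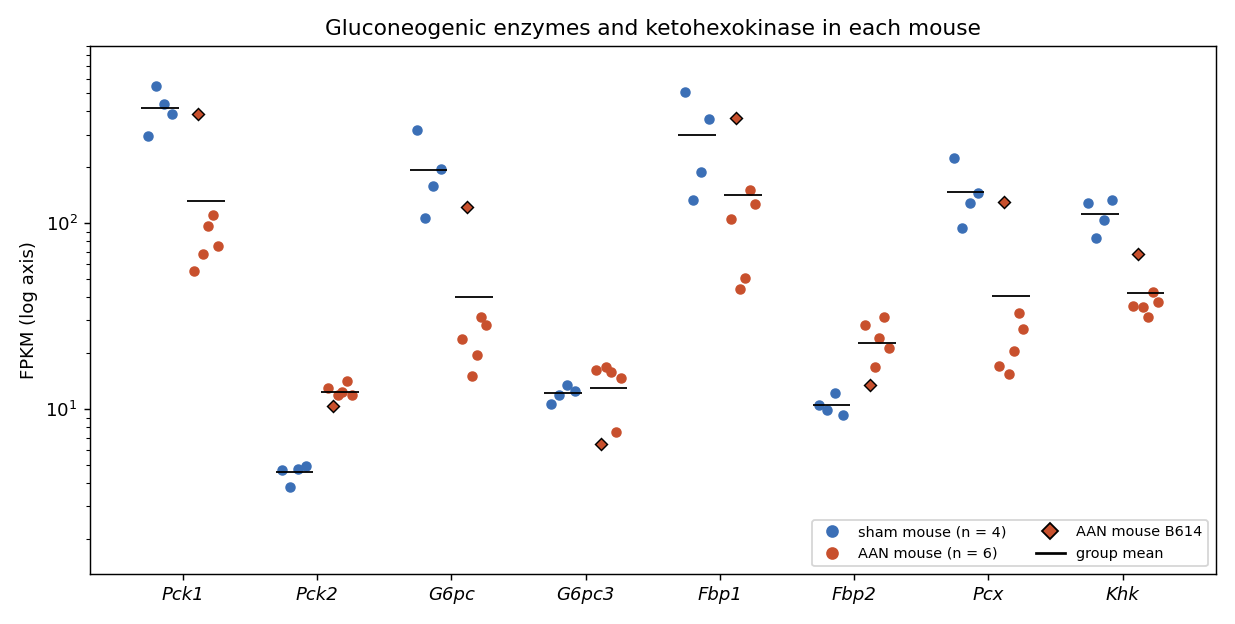
FPKM on a log axis of the 7 gluconeogenic enzymes and of *Khk* in each mouse, with blue points for 4 sham mice, red points for 6 AAN mice, a black-edged diamond for AAN B614 and bars at the group means. In *Pck1*, *G6pc* and *Pcx*, B614 lies at 385, 122 and 129.9 FPKM within the sham range, while *Pck2* separates all AAN mice (10.4 to 14.2) from all sham mice (3.82 to 4.92).

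Summed over both isozymes, the PEP carboxykinases made up 299 to 554 FPKM in sham mice and 68.3 to 125 FPKM in the AAN mice other than B614, which had 396 FPKM. *Pck2* was 0.69% to 1.58% of this sum among sham mice and 2.63% to 19.1% among AAN mice. The share of *Fbp2* among the fructose bisphosphatases was 2.03% to 6.85% among sham mice and 3.52% to 32.1% among AAN mice. Such shares within a mouse do not depend on scaling by 1 factor per mouse. The within-mouse difference *Pck2* minus *Pck1* was -6.45 ± 0.51 (SD, n = 4) on the log2 scale in sham mice and -3.06 ± 1.10 (SD, n = 6) in AAN mice, with 6 of 6 AAN mice above all sham mice (exact permutation test, two-sided, p = 0.00476, the smallest that 210 splits allow, adjusted p = 0.0111 over 14 pairs). *G6pc3* minus *G6pc* differed by 2.58 (exact permutation adjusted p = 0.0519) and was above all sham mice in 5 of 6 AAN mice. Without B614 that difference was 3.16 (exact permutation adjusted p = 0.0123).

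Of the 8 transport genes, 2 (*Slc2a3* and *Slc2a6*) were called higher and none was called lower, with 3 higher (*Slc2a1* added) and 1 lower (*Slc5a2*) at the adjusted p limit alone. Under the median of ratios, 2 were called lower, the sodium coupled carriers *Slc5a1* (-1.24) and *Slc5a2* (-1.37). Of all genes, 35.8% were called higher and 3.43% lower, and 10.5% were called lower by the median of ratios. *Slc5a2* encodes SGLT2, which takes up most of the filtered glucose in the early proximal tubule, and *Slc5a1* encodes SGLT1, which takes up the remainder further along. *Slc5a2* (chr7:128265657-128272430) had 85.5, 79.9, 116 and 84.4 FPKM in sham mice and 47.6, 55.5 and 90.3 FPKM as the lowest, median and highest AAN values. The highest was B614, and the 5 other AAN mice were below all sham mice. The change was -0.60 (SE 0.20, adjusted p = 0.020), under 2-fold, and -0.24 with the same FPKM total (adjusted p = 0.48). Of the 50-base stretches of *Slc5a2*, 15.8% also occur in 1 other gene. *Slc5a1* had 16.1, 6.18, 5.99 and 12.3 FPKM in sham mice and 3.57, 6.19 and 19.3 FPKM in AAN mice, with overlapping groups. Its change was -0.48 (SE 0.45, adjusted p = 0.37), and it was not called without AAN B614 (-0.79) or sham B607 (-0.22). The difference *Slc5a1* minus *Slc5a2* did not differ between the groups beyond their spread (0.12, SE 0.51, exact permutation adjusted p = 0.83).

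*Slc2a2* encodes GLUT2, the exit carrier of the proximal tubule, and *Slc2a1* encodes GLUT1, a carrier of most cells. *Slc2a1* (ENSMUSG00000028645, chr4:119108711-119137983) had 9.61, 6.07, 9.12 and 11.6 FPKM in sham mice and 14.2, 15.6 and 20.2 FPKM as the lowest, median and highest AAN values. All AAN mice were above all sham mice, and the change of 0.88 (SE 0.19, adjusted p = 0.0020) stayed under 2-fold and close to the median of all genes. It reached 2-fold and was called higher without sham H249 (1.01), with B tags only (1.004) and with the same FPKM total (1.24). With scaling by the median of ratios it was 0.12. *Slc2a2* had 21.1, 5.16, 8.40 and 10.4 FPKM in sham mice and 4.26, 14.9 and 28.4 FPKM in AAN mice. Its groups overlapped, and its change of 0.39 (SE 0.49, adjusted p = 0.50) turned to -0.36 by the median of ratios and -0.19 by quantile normalization. The fructose carrier *Slc2a5* and the urate carrier *Slc2a9* had changes of 0.16 and 0.13, also below 0 under both scalings, and their groups overlapped.

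The 2 carriers that rose were nearly absent in sham mice and passed the filter through the AAN mice. *Slc2a3* (ENSMUSG00000003153, chr6:122727809-122801640) encodes GLUT3, known from neurons and blood cells, and had 0.021, 0.035, 0.061 and 0.028 FPKM in sham mice, a mean of about 4.31 fragments. In AAN mice it had 0.54, 0.68 and 0.91 FPKM as the lowest, median and highest values. *Slc2a6* (ENSMUSG00000036067, chr2:27021363-27027998), a lysosomal member of the family known from macrophages, had 0.023, 0, 0.024 and 0.097 FPKM in sham mice and 1.20, 3.20 and 4.22 FPKM in AAN mice. For both genes the groups did not overlap, and B614 was the lowest of the AAN mice. *Slc2a3* rose by 2.54 (SE 0.22, adjusted p = 1.6e-06) and *Slc2a6* by 4.49 (SE 0.33, adjusted p = 5.6e-07). These sizes depend on the pseudocount, being 0.71 and 1.92 with a pseudocount of 1, where *Slc2a3* was under 2-fold. *Slc2a6* was at most 0.31% of the FPKM of the 6 facilitative carriers in sham mice and 1.82% to 10.3% of it in AAN mice.

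The upper steps of glycolysis, 12 genes from hexokinase to triose phosphate isomerase, held 6 genes called higher and none called lower. By the median of ratios 4 were called higher and 2 lower, and by quantile normalization 2 were called higher and none lower. Of all genes, 35.8% were called higher and 3.43% lower with the values as deposited. The shares were 19% and 10.5% by the median of ratios, and 14.9% and 11.6% by quantile normalization. Hexokinases trap glucose in the cell. *Hk1* (chr10:62268855-62379908), the isozyme of most tissues, had 8.85, 3.48, 2.12 and 4.29 FPKM in sham mice and 2.96, 6.00 and 17.8 FPKM as the lowest, median and highest AAN values, the last in B614. The groups overlapped, with a change of 0.69 (SE 0.46, adjusted p = 0.21). It was -0.057 under the median of ratios and -0.060 under quantile normalization. With each mouse left out it ran from 0.38 (without sham B636) to 1.05 (without sham B607) and was not called. *Hk2* (ENSMUSG00000000628, chr6:82725025-82774454), the inducible isozyme of muscle, fat and many tumours, had 0.058, 0.055, 0.080 and 0.018 FPKM in sham mice and 1.71, 3.49 and 4.81 FPKM in AAN mice. *Hk3* (ENSMUSG00000025877, chr13:55005985-55021385), the isozyme of myeloid cells, had 0.19, 0.10, 0.17 and 0.070 FPKM in sham mice and 1.87, 3.72 and 6.00 FPKM in AAN mice. Neither gene overlapped between the groups and both were lowest in B614 among AAN mice. *Hk2* passed the filter only through the AAN mice. *Hk2* rose by 4.47 (SE 0.29, adjusted p = 2.5e-07) and *Hk3* by 4.08 (SE 0.30, adjusted p = 5.8e-07), and with a pseudocount of 1 by 2.03 and 2.08.

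The summed level of the 3 hexokinases was 2.37 to 9.10 FPKM in sham mice and 11.5 to 21.4 FPKM in AAN mice, with no overlap. *Hk1* made up 89.5% to 98.0% of it in sham mice but 25.8% to 58.2% in the AAN mice other than B614, which had 83.3%. *Hk2* minus *Hk1* was higher in AAN mice by 3.78 (SE 0.71, exact permutation adjusted p = 0.0167, 6 of 6 AAN mice above all sham mice), and by 1.44 with a pseudocount of 1, where it did not pass (adjusted p = 0.096).

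Phosphofructokinase is the step that limits the flow of glycolysis. *Pfkp*, the platelet isozyme, had 2.22 ± 1.12 FPKM (SD, n = 4) in sham mice and 7.59 ± 2.27 FPKM (SD, n = 6) in AAN mice. It rose by 1.82 (SE 0.34, adjusted p = 0.00071) with no overlap, and by quantile normalization it was higher without a call. *Pfkl*, the liver isozyme, had means of 10.5 and 12.7 FPKM (change 0.35, adjusted p = 0.33) and *Pfkm*, the muscle isozyme, 15.3 and 12.0 FPKM (change -0.35, adjusted p = 0.34). The sign for *Pfkl* turned under the median of ratios and quantile normalization, and that for *Pfkm* with the same FPKM total (0.0076), while by the median of ratios *Pfkm* was called lower (-1.11, adjusted p = 0.0057). *Pfkp* was 6.15% to 8.52% of the 3 isozymes among sham mice and 17.8% to 30.6% among AAN mice, while *Pfkm* went from 48.3% to 59.4% down to 29.5% to 45.9%. *Pfkp* minus *Pfkm* was higher in AAN mice by 2.17 (SE 0.25, exact permutation adjusted p = 0.0111, 6 of 6 mice above all sham mice). The regulators *Pfkfb3* and *Pfkfb4*, which set the level of the activator fructose 2,6-bisphosphate, rose from 0.49 to 1.71 FPKM (change 1.65, adjusted p = 0.0022) and from 0.76 to 3.01 FPKM (change 1.81, adjusted p = 7.9e-05). *Pfkfb3* overlapped in 1 AAN mouse and *Pfkfb4* in none. By quantile normalization both were higher without a call (0.44 and 0.69), and *Pfkfb3* also by the median of ratios (0.99) and with a pseudocount of 1 (0.84).

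*Pfkl* and *Fbp1* catalyse opposite directions of the same step. *Pfkl* minus *Fbp1* was -4.76 ± 0.31 (SD, n = 4) in sham mice and -3.14 ± 0.80 (SD, n = 6) in AAN mice, a difference of 1.62 (SE 0.36, exact permutation adjusted p = 0.0167). It did not pass by quantile normalization (1.08, adjusted p = 0.080), without sham B607 (1.47) or with B tags only (1.68). *Hk1* minus *G6pc*, the opposed pair at the entry of glucose, was higher by 3.26 (SE 0.41, exact permutation adjusted p = 0.0111). *Pkm* minus *Pck1*, the pair at the level of phosphoenolpyruvate, was higher by 2.88 (SE 0.62, exact permutation adjusted p = 0.0111). In each of these 3 pairs all 6 AAN mice, B614 included, were above all sham mice.

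The remaining genes of these upper steps showed no shared direction. *Aldoa*, the aldolase of muscle and most cells, had means of 149 ± 12.6 (SD, n = 4) and 145 ± 12.0 FPKM (SD, n = 6), and *Gpi1*, the glucose 6-phosphate isomerase, 41.1 and 39.5 FPKM. Their changes of -0.04 and -0.05 turned to 0.32 and 0.31 with the same FPKM total and were -0.81 and -0.82 by the median of ratios (adjusted p = 0.00075 and 0.0021), under 2-fold. *Tpi1*, the triose phosphate isomerase, had a change of -0.45 (adjusted p = 0.29) and was called lower by the median of ratios (-1.22, adjusted p = 0.0070). The brain aldolase *Aldoc* was called higher (0.73 to 1.71 FPKM, change 1.15, adjusted p = 0.022) with overlapping groups, and it lost the call without sham B634, sham B636 or AAN B614 or with a pseudocount of 1 (0.63), and had a change of 0.48 by the median of ratios and -0.020 by quantile normalization.

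**Figure D3:**
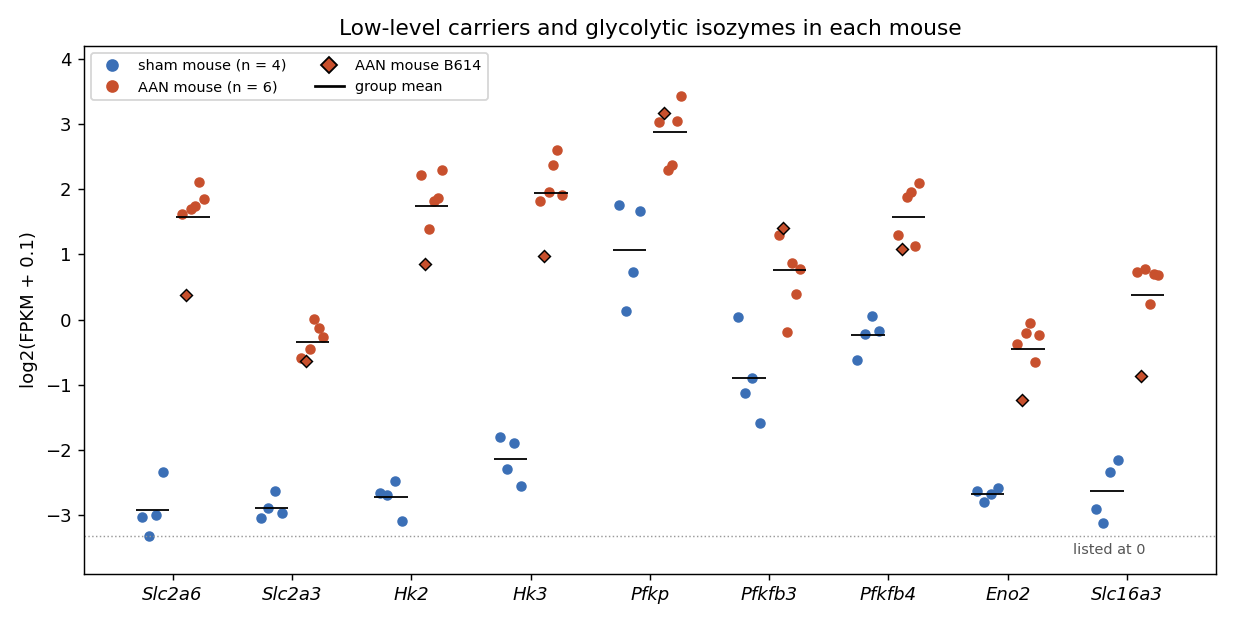
Log2(FPKM + 0.1) of 9 carriers and glycolytic genes that rose from low levels, in each of 4 sham mice (blue) and 6 AAN mice (red, AAN B614 as a black-edged diamond), with bars at the group means. The dotted line marks a value listed at 0. Sham and AAN mice overlap in *Pfkfb3* and in none of the other 8 genes.

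Of the 8 enzymes of the lower steps, from glyceraldehyde 3-phosphate dehydrogenase to pyruvate kinase, 3 were called higher and none lower, against 1 higher and 2 lower by the median of ratios. The shares of all genes were 35.8% higher and 3.43% lower, and 19% and 10.5% by the median of ratios. *Pkm* (ENSMUSG00000032294, chr9:59656368-59679375), the pyruvate kinase of most cells, had 114, 50.5, 61.6 and 116 FPKM in sham mice and 107, 173 and 178 FPKM as the lowest, median and highest AAN values. Of the AAN mice, 4 lay above all sham mice and 2 within their range. The change was 0.90 (SE 0.27, adjusted p = 0.013), under 2-fold, and 0.14 by the median of ratios. It reached 2-fold and was called without sham B607, sham H249 or AAN B639 (1.07, 1.08 and 1.0006). The same held with B tags only (1.04) and with the same FPKM total (1.27). *Pklr*, the pyruvate kinase of liver, kidney and red cells, had 8.73, 4.32, 5.73 and 7.02 FPKM in sham mice and 9.78, 13.3 and 16.0 FPKM in AAN mice. Its groups did not overlap, and the change of 1.03 (SE 0.21, adjusted p = 0.0012) lay just past 2-fold, so the call was lost without sham B634, sham B636, AAN A483 or AAN B666, with a pseudocount of 1, by the median of ratios (0.27) and by quantile normalization (0.39). *Pkm* minus *Pklr* did not differ between the groups beyond their spread (-0.13, SE 0.19, exact permutation adjusted p = 0.61), and *Pkm* was 91.5% to 94.3% of the sum among sham mice and 88.7% to 94.0% among AAN mice.

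Among the enolases, the most abundant isozyme was not called and the minor ones rose. *Eno1*, the isozyme of most cells, had 32.4 ± 8.35 (SD, n = 4) and 31.4 ± 6.31 FPKM (SD, n = 6), a change of -0.03 that turned to 0.33 with the same FPKM total and was -0.80 by the median of ratios (adjusted p = 0.0017) and -0.36 by quantile normalization. The neuronal *Eno2* rose from 0.057 to 0.65 FPKM (change 2.21, SE 0.25, adjusted p = 1.6e-05) and the muscle *Eno3* from 1.27 to 3.06 FPKM (change 1.12, SE 0.29, adjusted p = 0.0052), both without overlap. *Eno2* passed the filter only through the AAN mice. *Eno3* was not called by the median of ratios (0.40) or quantile normalization (0.084). With a pseudocount of 1 both were under 2-fold (0.64 and 0.78), and *Eno3* also lost its call without AAN B630 or B639, which held its highest values (4.88 and 4.44 FPKM). *Eno1* still made up 80.8% to 94.4% of enolase FPKM in AAN mice, against 94.8% to 96.9% in sham mice. *Eno1* minus *Eno3* was lower by 1.16 (SE 0.40, exact permutation adjusted p = 0.0533), with a difference of -0.44 by quantile normalization.

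*Gapdh*, *Pgk1* and *Pgam1*, the enzymes between the trioses and enolase, had changes of -0.21, -0.57 and -0.27 with adjusted p of 0.65, 0.21 and 0.40. All 3 overlapped between the groups, and *Gapdh* and *Pgam1* turned to 0.15 and 0.089 with the same FPKM total. By the median of ratios *Pgk1* (-1.33, adjusted p = 0.0058) and *Pgam1* (-1.04, adjusted p = 0.0023) were called lower, and *Gapdh* was at -0.97. *Gapdh* had 25.1 ± 12.8 FPKM (SD, n = 4) in sham mice, below *Tpi1* (147), *Pgk1* (135) and *Pgam1* (146) of the neighbouring steps. Several genes of these steps share sequence with other genes, and how the authors treated fragments that map to several places was not given in the sources used here. The share of 50-base stretches found in other genes was 53.9% for *Pgk1*, 36.2% for *Pgam1*, 26.0% for *Eno1*, 25.8% for *Pkm*, 25.1% for *Gapdh* (in 223 other genes), 21.0% for *Ldhb* and 20.5% for *Pklr*, so their levels are uncertain. For *Hk2*, *Hk3*, *Pck1*, *G6pc*, *Pcx*, *Fbp1*, *Khk* and *Slc16a3* it was 0. *Pklr* shared its stretches with 1 other gene, and 1 gene overlaps *Pklr* on the opposite strand.

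**Figure D4:**
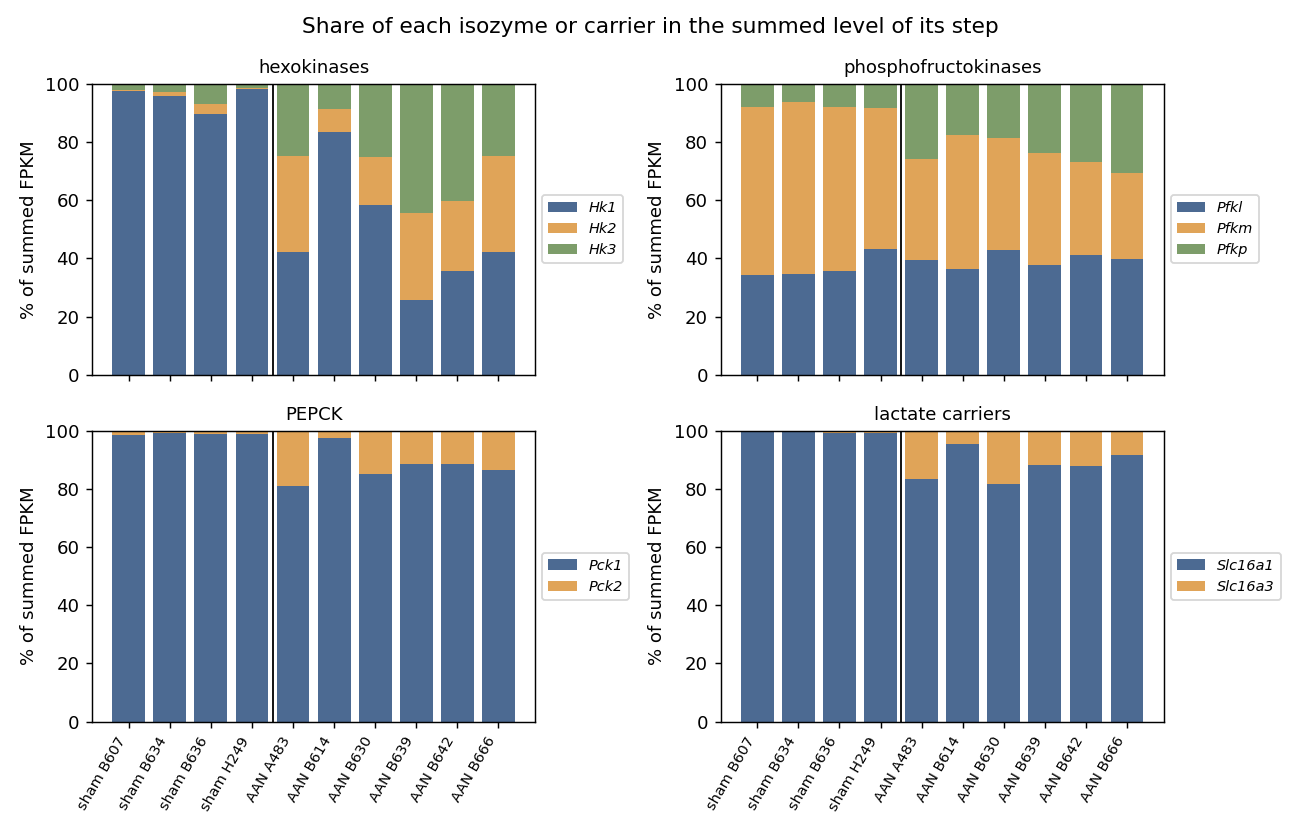
Percent of the summed FPKM that each isozyme or lactate carrier of 4 steps took in each mouse, with the 4 sham mice left of the black line and the 6 AAN mice right of it. *Hk1* falls from 89.5% to 98.0% in sham mice to 25.8% in AAN B639, *Pfkp* rises to 30.6% in AAN B666, *Pck2* to 19.1% in AAN A483 and *Slc16a3* to 18.2% in AAN B630.

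Of the 8 genes of lactate, pyruvate and fructose, *Slc16a3* was called higher and *Khk* lower, beside 35.8% and 3.43% of all genes. *Ldha* and *Ldhb* encode the subunits of lactate dehydrogenase, the first prevalent in muscle and the second in heart and kidney cortex. *Ldhb*, the most abundant of the 43 genes, had 678, 370, 441 and 613 FPKM in sham mice and 384, 665 and 739 FPKM as the lowest, median and highest AAN values. *Ldha* had 157, 63.0, 75.2 and 140 FPKM in sham mice and 54.8, 118 and 132 FPKM in AAN mice. Both overlapped between the groups. The changes were 0.22 for *Ldhb* (adjusted p = 0.44), which was -0.54 by the median of ratios, and -0.08 for *Ldha* (adjusted p = 0.85), which was 0.29 with the same FPKM total and -0.84 by the median of ratios (adjusted p = 0.029). *Ldha* was 14.5% to 18.8% of the sum among sham mice and 10.7% to 16.5% among AAN mice, and *Ldha* minus *Ldhb* did not differ beyond the spread (-0.30, SE 0.16, exact permutation adjusted p = 0.14).

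*Slc16a3* (ENSMUSG00000025161, chr11:120948480-120960868) encodes MCT4, a lactate exporter of glycolytic cells, and had 0.033, 0.014, 0.097 and 0.12 FPKM in sham mice, about 5.92 fragments in the mean. AAN mice had 0.45, 1.52 and 1.62 FPKM as the lowest, median and highest values, with B614 the lowest and no overlap with sham mice. *Slc16a3* rose by 3.01 (SE 0.35, adjusted p = 1.8e-05), and by 1.07 with a pseudocount of 1. It passed the filter only through the AAN mice. *Slc16a1*, which encodes the widely found carrier MCT1, had 15.4 ± 2.27 (SD, n = 4) and 9.97 ± 3.44 FPKM (SD, n = 6). Its change was -0.67 (SE 0.23, adjusted p = 0.023), under 2-fold, and -0.31 with the same FPKM total (adjusted p = 0.43). It was called lower by the median of ratios (-1.43) and by quantile normalization (-1.21). It remained the larger of the pair, with 81.8% to 95.5% of their sum in AAN mice against 99.3% to 99.9% in sham mice. *Slc16a3* minus *Slc16a1* was higher by 3.68 (SE 0.39, exact permutation adjusted p = 0.0111, 6 of 6 AAN mice above all sham mice), and by 1.69 with a pseudocount of 1.

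*Khk* (ENSMUSG00000029162, chr5:30921431-30931248), the ketohexokinase that admits fructose to the pathway, had 128, 83.0, 104 and 133 FPKM in sham mice and 31.1, 36.8 and 68.7 FPKM as the lowest, median and highest AAN values. It was the one member whose AAN values, B614 included, were all below the sham values, where 3.25% of all genes had such a separation. *Khk* fell by 1.44 (SE 0.23, adjusted p = 0.00022), and with every scaling tried it stayed lower and called. None of the 3 kinases that inhibit pyruvate dehydrogenase was called in limma with the values as deposited, and *Pdk2* was called lower by the median of ratios (-1.45, adjusted p = 9.2e-05). *Pdk2* had 68.0 ± 6.64 (SD, n = 4) and 43.2 ± 12.7 FPKM (SD, n = 6). In 5 of 6 AAN mice it was below all sham mice. Its change was -0.69 (adjusted p = 0.0095), under 2-fold, and -0.33 with the same FPKM total (adjusted p = 0.34). *Pdk1* had a change of 0.45 (adjusted p = 0.17). *Pdk4*, the isozyme of fasting, had 4.24, 1.79, 1.69 and 4.58 FPKM in sham mice and 1.72, 2.72 and 8.27 FPKM in AAN mice. Its change was 0.14 (adjusted p = 0.80). Both signs turned negative under the median of ratios and quantile normalization.

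**Figure D5:**
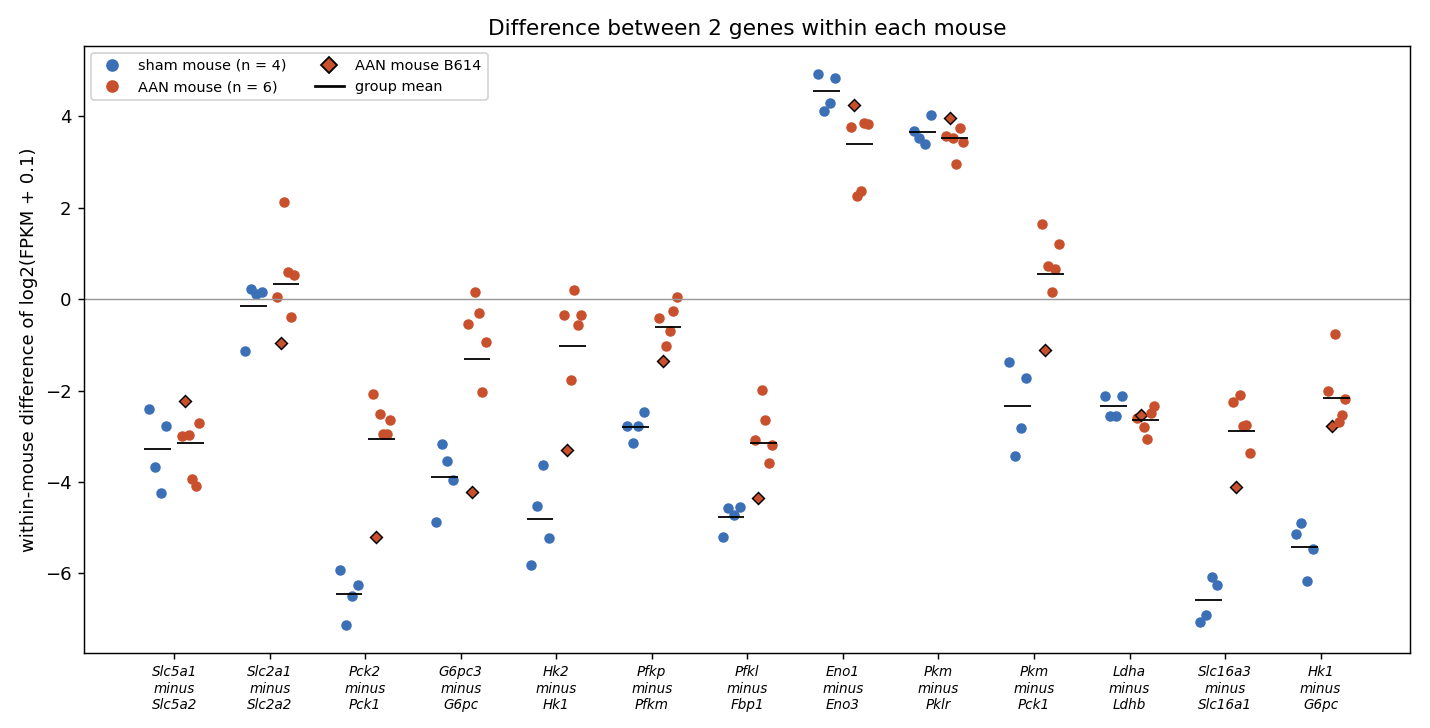
Within-mouse difference of log2(FPKM + 0.1) between the members of 13 gene pairs, in 4 sham mice (blue) and 6 AAN mice (red, AAN B614 as a black-edged diamond), with bars at the group means. The 6 AAN mice lie above all sham mice in 7 pairs, among them *Pck2* minus *Pck1* (means -6.45 in sham and -3.06 in AAN mice), and the groups overlap in the 6 others.

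In all, 13 members were higher in every AAN mouse than in any sham mouse, where 40.3% of all genes had such a separation, and 1 was lower. In 9 of the 13 within-mouse pairs described the raw p was under the 0.05 limit, and 7 passed after adjustment. A factor common to all genes of a mouse nearly cancels in such pairs, but quantile normalization does not, and the pairs share the mice and several genes.

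Of 78 other listed genes of glucose metabolism, 77 were found and 74 tested, of which 12 were called higher, 9 lower and 53 were not called, beside the same backgrounds of 35.8% and 3.43%. By the median of ratios 5 were called higher and 29 lower, beside 19% and 10.5% of all genes. By quantile normalization the numbers were 4 and 17, beside 14.9% and 11.6% of all genes. Of those called lower by the median of ratios, 8 were among the 10 genes of pyruvate entry, 5 each among the carriers and the other enzymes, 4 among the lactate genes, 3 among the regulators and 2 each among the fructose and glycogen genes. Among the carriers, 3 of 10 tested were called higher and 1 lower. *Slc37a1* rose most (0.63 to 4.23 FPKM, change 2.57, adjusted p = 3.3e-06), and *Slc37a4*, the transporter that brings glucose 6-phosphate to *G6pc* in the endoplasmic reticulum, fell by 1.09 (102 to 49.1 FPKM, adjusted p = 0.0030), a call lost without sham B607 or AAN B630. Among other enzymes, 2 of 12 were called higher and 2 lower, from *Pfkfb1* (change 1.46) to the muscle mutase *Pgam2* (155 to 76.5 FPKM, change -1.05, not called without sham B634, sham B636, AAN B639 or AAN B666). For pyruvate entry into mitochondria, 1 of 10 was called higher and 1 lower, *Pdp1*, a phosphatase that activates pyruvate dehydrogenase (0.26 to 1.39 FPKM, change 2.05), and *Mpc1*, a subunit of the mitochondrial pyruvate carrier (15.6 to 5.67 FPKM, change -1.33, not called without sham H249). Of 6 other lactate genes, 3 were called lower and none higher, from *Slc16a4* (18.0 to 4.15 FPKM, change -2.34) to the D-lactate dehydrogenase *Ldhd* (74.7 to 23.3 FPKM, change -1.60), and all 3 lay below all sham mice in every AAN mouse.

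None of 8 genes of the pentose phosphate pathway was called in limma, while 3 were higher at the adjusted p limit without the fold limit. *Sord*, the sorbitol dehydrogenase that makes fructose, fell by 1.67 (578 to 205 FPKM, adjusted p = 0.0026), 1 of 3 fructose and polyol genes. Of 10 glycogen genes 2 were called higher, *Pgm2* (change 1.48) and the brain phosphorylase *Pygb* (change 1.18, not called without sham B634 or AAN B614). Among 15 regulators, 4 were called higher and 1 lower. *Nr1d1*, a clock repressor, rose most (2.96 to 21.7 FPKM, change 2.89, adjusted p = 1.4e-05), and *Hnf4a*, a factor of proximal tubule and liver that binds gluconeogenic genes, fell by 1.15 (92.1 to 42.2 FPKM, adjusted p = 0.0032), with no overlap, a call lost without sham B607.

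The markers of cell types moved between the same mice. The most abundant proximal tubule marker, *Slc34a1*, had 2008 and 674 FPKM in sham and AAN mice, and 8 of the 10 markers were called lower. The summed level of the list was 3476 to 5979 FPKM in sham mice, 719 to 1196 FPKM in the AAN mice other than B614, and 2802 FPKM in B614. *Pck1*, *G6pc*, *Pcx* and *Khk* were lower in the same mice, and B614 was the highest AAN mouse for each of them. The thick ascending limb (*Umod*, 882 and 522 FPKM), the distal tubule and collecting duct (*Slc12a3*, 188 and 156 FPKM) and podocytes (*Podxl*, 30.2 and 37.3 FPKM) were all present, with 1 of 5 and 1 of 6 markers called lower and 1 of 5 called higher. The distal call was of *Slc4a1* (adjusted p = 0.043), named after its value was seen. It was lost without each mouse in turn except sham B634 and AAN B614, with a pseudocount of 1, without the filter, with both FPKM totals and with B tags only. By the median of ratios 3 of 5 thick limb, 3 of 6 distal and 1 of 6 endothelial markers were called lower, and no podocyte marker was called by it or by quantile normalization. None of 6 endothelial (*Cdh5*, 8.37 and 14.2 FPKM) and 5 erythroid markers (*Hba-a1*, 5.62 and 6.43 FPKM) was called in limma, with 2 endothelial and no erythroid markers higher at the adjusted p limit alone.

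All 7 macrophage markers were called higher, with a summed level of 42.7 to 72.7 FPKM in sham mice and 1692 to 5372 FPKM in AAN mice, of which *Lyz2* was the most abundant (19.5 and 2164 FPKM). All 8 leukocyte markers rose as well, from 7.77 to 14.6 FPKM summed in sham mice to 162 to 491 FPKM in AAN mice (*Cd52*, 4.83 and 160 FPKM). All 8 injured tubule (*Krt8*, 50.04 and 190 FPKM), 6 fibroblast (*Col1a1*, 2.75 and 63.4 FPKM) and 6 proliferation markers (*Pcna*, 5.93 and 19.6 FPKM) rose too, where by the median of ratios 4 of the 6 proliferation markers were called, *Pcna* not among them. B614 had the lowest summed level of AAN mice for the macrophage, leukocyte, injured tubule, fibroblast and proliferation lists. Among the genes called higher, it was the lowest AAN mouse for *Hk2*, *Hk3*, *Slc2a3*, *Slc2a6*, *Slc16a3*, *Eno2*, *Eno3*, *Pfkfb4*, *Pck2* and *Fbp2*. It was the highest AAN mouse for *Pfkfb3* (2.55 FPKM) and *Aldoc* (3.33 FPKM), and neither the lowest nor the highest for *Pfkp* and *Pklr*. For proliferation the sums of B614 and B630 were close (27.3 and 27.5 FPKM), and the mean log2 was lower in B630 (1.545 against 1.590). No marker was at 0 in all mice of a group. What part these lists had in the changes of the 43 genes was not tested.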

How the data were processed

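RNA of the kidney cortex was sequenced as paired-end libraries. The authors mapped cleaned reads to GRCm38 with Hisat2 and deposited FPKM values per gene from Stringtie, 1 column per mouse. The annotation release, the handling of multiply mapped fragments and strand use were not given in the sources used here. The authors tested with edgeR, which needs counts. Here limma 3.58.1 (R 4.3.3; lmFit, eBayes with trend and robust) was fitted to log2(FPKM + 0.1) of genes that averaged 0.1 FPKM or more, two-sided, with Benjamini-Hochberg adjustment over all 17129 genes. No covariate was used, since no batch is in the labels. Mice are taken as independent animals, as each has its own tag.

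Depth was recovered from FPKM under 0.3 in genes with 1 transcript, of which 94.7% to 96.9% per mouse were whole fragments within 0.05. Fragment numbers and 0 values carry counting error, and a 0 allows up to 3 fragments. Symbols and positions came from GENCODE (21650 of 21792 genes). Pairs were tested by exact two-sided permutation of the 4 and 6 mice (210 splits) and adjusted over 14 pairs. One listed gene and its pair are counted in these families but not reported here. The isozyme sums and the genes with their motifs are descriptions. On simulated data for sham against AAN (15188 genes), 85% of 100 genes changed by 1.5 and 95% of 100 changed by 2 on the log2 scale were called, and 11 of 14988 unchanged genes. The changed genes were drawn from those with sham levels of about 1 FPKM or more, and no shift common to most genes was simulated. These shares therefore do not cover the 9 of 14 genes called higher that had sham means under 1 FPKM.

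Values of the 4 sham mice with the lowest, median and highest of the 6 AAN mice were given for 16 members chosen by role, and for other called members among the 3 highest or 3 lowest changes of their role. From each other list the called genes with the highest and lowest change were named, and from each marker list the most abundant gene. The members, lists and pairs were chosen with earlier results of these data known. The isozyme sums were chosen after the values were seen. The alternatives tried were a pseudocount of 1 or 0.01, leaving out the filter or raising it to 1 FPKM, scaling by the median of ratios, quantiles, the same FPKM total or that total outside the mitochondrial genome, limma without trend and robust, no fold limit, each mouse left out, and mice with B tags only. Pairs and figures were made with numpy 2.4.6, scipy 1.17.1, pandas 2.3.3 and matplotlib 3.10.9 under Python 3.11.15.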

Additional observations from a re-analysis of the deposited data

Results flagged for a closer look

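Values that lay far from the rest of their group were sought in 138 groups of 4 or 6 mice by Dixon's criterion at the 95% level. In normal values about 1 in 20 groups (6.9 here) would be marked by chance. The groups share mice, and the genes were taken in FPKM without logs, so the number marked cannot be set against this level. The criterion marked 16, of which 13 belonged to AAN mouse B614.

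For the gluconeogenic enzymes, B614 had 385 FPKM of *Pck1* (other AAN mice 55.3 to 111), 122 FPKM of *G6pc* (15.0 to 31.3), 370 FPKM of *Fbp1* (44.3 to 150.1) and 129.9 FPKM of *Pcx* (15.3 to 32.9). Its *Pck2* minus *Pck1* was -5.20, against -2.95 to -2.08 in the other AAN mice. For the carriers, it had 19.3 FPKM of *Slc5a1* (3.57 to 8.29) and 18.5 FPKM of *Slc2a5* (2.99 to 7.86).

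In glycolysis and at its borders, B614 had 23.0 FPKM of *Pfkm* (8.23 to 10.8), 68.8 FPKM of *Pdk2* (35.1 to 41.4), 8.27 FPKM of *Pdk4* (1.72 to 4.07) and 68.7 FPKM of *Khk* (31.1 to 42.4). Its mean log2(FPKM + 0.1) over the markers was 7.16 for the proximal tubule (4.84 to 5.50 in the others) and 6.20 for the distal tubule and collecting duct (4.24 to 4.89). Without B614, 13 members were called higher and 5 lower, with *Fbp1* added and *Aldoc* lost.

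In sham mouse B636 *Slc5a2* was 115.8 FPKM, against 79.9 to 85.5 in the other sham mice. In sham mouse B607 *Slc2a1* minus *Slc2a2* was -1.13, against 0.12 to 0.23. The depth of AAN mouse B639 was 13.4 M fragments, against 15.5 to 16.5 M.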

How the results depend on the processing

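The genes that fell (*Pck1*, *G6pc*, *Pcx*, *Khk*) kept their sign and call under every alternative, and so did *Slc2a6*, *Hk2* and *Hk3*, each of which rose. *Slc16a3* kept its call wherever it was tested, which it was not among genes averaging 1 FPKM or more. No paired analysis was possible because the tags of sham and AAN mice have no number in common. The causes of the changes below were not tested.

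Genes called higher over all genes numbered 2909 at a pseudocount of 1, 4025 among genes averaging 1 FPKM or more, 3261 after scaling by the median of ratios, 9482 without a fold limit and 2546 after quantile normalization, and genes called lower 1801 by the median of ratios, 1992 by quantiles, 332 with the same FPKM total and 1027 without a fold limit. Transport had 1 gene higher at a pseudocount of 1 and among genes averaging 1 FPKM or more, and 2 lower by the median of ratios and 1 without a fold limit. Gluconeogenesis had 1 gene higher with a pseudocount of 1 and with B tags only, 0 by the median of ratios and by quantile normalization, and 1 to 2 with each mouse left out. Glycolysis had 5 genes higher with a pseudocount of 1, 6 by the median of ratios and 4 by quantile normalization, and 7 lower by the median of ratios, 2 by quantiles and 3 without a fold limit.

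Of the pairs, *Slc5a1* minus *Slc5a2* turned to -0.44 and *Pkm* minus *Pklr* to 0.51 by quantile normalization. *Hk2* minus *Hk1* did not pass with a pseudocount of 1 (1.44) or B tags only (3.503), nor *Pfkl* minus *Fbp1* by quantile normalization (1.08) or with B tags only (1.68). *G6pc3* minus *G6pc* passed with a pseudocount of 0.01 (2.58) and by the median of ratios (2.58), and *Eno1* minus *Eno3* likewise (-1.21 and -1.20). With each mouse left out these ran from -0.21 to 0.41 for *Slc5a1* minus *Slc5a2*, 2.25 to 3.16 for *G6pc3* minus *G6pc*, 1.39 to 1.86 for *Pfkl* minus *Fbp1* and -1.33 to -0.93 for *Eno1* minus *Eno3*. *Pfkl* minus *Fbp1* did not pass without sham B607, *G6pc3* minus *G6pc* passed without AAN B614, and *Eno1* minus *Eno3* passed without AAN B614, B630 or B639.

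The sign turned for these genes. By the median of ratios and by quantile normalization, the changes were -0.36 and -0.19 for *Slc2a2*, -0.59 and -0.56 for *Slc2a5*, -0.52 and -0.97 for *Slc2a9*, -0.75 and -0.53 for *G6pc3*, -0.057 and -0.060 for *Hk1*, -0.40 and -0.22 for *Pfkl*, -0.29 and -0.48 for *Pdk1*, and -0.60 and -0.75 for *Pdk4*. By the median of ratios alone *Ldhb* was -0.54, and by quantile normalization alone *Aldoc*, which was called higher with the values as deposited (1.15), was -0.020. With the same FPKM total the values were 0.31 for *Gpi1*, 0.0076 for *Pfkm*, 0.32 for *Aldoa*, 0.15 for *Gapdh*, 0.089 for *Pgam1*, 0.33 for *Eno1* and 0.29 for *Ldha*, while by the median of ratios these 7 genes were further below 0. With B tags only they were -0.064 for *G6pc3*, 0.087 for *Eno1* and 0.028 for *Ldha*. With each mouse left out the ranges that crossed 0 were -0.17 to 0.12 (*Eno1*), -0.091 to 0.18 (*G6pc3*), -0.48 to 0.033 (*Gapdh*), -0.19 to 0.085 (*Gpi1*), -0.31 to 0.13 (*Ldha*), -0.15 to 0.37 (*Pdk4*), -0.19 to 0.55 (*Slc2a5*) and -0.55 to 0.52 (*Slc2a9*).

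At 13.4 to 17.5 M fragments, genes such as *Slc2a6* and *Hk2* rest on a handful of fragments in sham mice, so the size of their rise is set by the pseudocount.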
